A study of Rattus norvegicus with 20 samples.

Results

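Deep cortical layer identity genes are the transcription regulators and marker genes that distinguish the neurons of cortical layers V and VI, and 9 of them were followed here: Fezf2, Bcl11b, Sox5, Tbr1, Foxp2, Tle4, Etv1, Crym and Pcp4. Their probes were found on a rat 2-colour array by the gene name, the gene named in the description, or the RefSeq accession. This gave 10 probes of 41012 on the array, for 8 of the 9 genes. Foxp2 was not analysed here, because no probe was matched to it. Bcl11b and Sox5 had 2 probes each, and the other 6 genes had 1.

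The samples were cortical neurons of 2-month-old rats that had a stroke, cut out by laser, about 300 of each kind per animal, and their RNA was amplified in 2 rounds. The labels call the kinds sprouting and non-sprouting neurons. A cholera toxin tracer (CTb-Alexa 488) was placed beside the infarct, and a second tracer (CTb-Alexa 647) went into the same site 7 or 21 days later in separate animals. Cells were taken 7 days after the second tracer. No strain, sex or cortical layer of the captured cells is given in the sources used here, nor which tracer pattern defined a sprouting neuron. There were 5 animals at day 7 and 5 at day 21, and all 10 had a stroke, so that the reference for sprouting neurons was always the non-sprouting neurons of the same animal. The 20 arrays were dye-swapped pairs, with 2 for each animal. Values below are log2 ratios of sprouting over non-sprouting neurons, as the mean of both arrays of an animal, and a positive value is a higher level in sprouting neurons. In captured cells of this kind, fewer cells of a type and less RNA per cell cannot be told apart.

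Layer V holds the neurons that project to the brainstem and spinal cord, and layer VI those that project to the thalamus. During development Fezf2 specifies subcerebral projection neurons and acts upstream of Bcl11b (Ctip2), a zinc finger protein needed for the outgrowth of corticospinal axons. Sox5 controls the order in which deep layer neuron types are made, Tbr1 and Foxp2 mark corticothalamic neurons, and Tle4 is a corepressor of the Groucho family found in the same neurons. Etv1 is an ETS factor of layer V, Crym a thyroid hormone binding protein of corticospinal neurons, and Pcp4 a small regulator of calmodulin that is abundant in deep layers. Bcl11b and Pcp4 are also made by striatal neurons, and Bcl11b by cortical interneurons.

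RefSeq's promoter table, build GRCr8, held an entry for 5 of the 9 genes: Tle4, Tbr1, Etv1, Pcp4 and Fezf2. The 250 bases before the listed start are printed for Pcp4, Fezf2 and Etv1, because these 3 genes had an entry in the table, an unadjusted p under 0.05 at day 7 and a probe brighter than those near the negative controls. Tle4 met the first and second of these conditions, but its probe lay near the negative controls. Capitals mark matches to the CCAAT box (CCAAT) or the GC box (GGGCGG) on either strand.
Pcp4, chr11:49269936-49270185, plus strand: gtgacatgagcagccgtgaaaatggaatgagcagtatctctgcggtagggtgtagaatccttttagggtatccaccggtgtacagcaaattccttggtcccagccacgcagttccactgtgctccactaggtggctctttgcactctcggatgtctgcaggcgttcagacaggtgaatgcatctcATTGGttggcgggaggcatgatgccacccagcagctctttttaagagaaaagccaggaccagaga
Fezf2, chr15:15203943-15204192, plus strand: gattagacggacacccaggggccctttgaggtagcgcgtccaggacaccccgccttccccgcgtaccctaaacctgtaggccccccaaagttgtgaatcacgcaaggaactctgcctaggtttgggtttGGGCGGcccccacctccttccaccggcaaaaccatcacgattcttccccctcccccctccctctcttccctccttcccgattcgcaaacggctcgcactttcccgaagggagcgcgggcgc
Etv1, chr6:61317179-61317428, plus strand: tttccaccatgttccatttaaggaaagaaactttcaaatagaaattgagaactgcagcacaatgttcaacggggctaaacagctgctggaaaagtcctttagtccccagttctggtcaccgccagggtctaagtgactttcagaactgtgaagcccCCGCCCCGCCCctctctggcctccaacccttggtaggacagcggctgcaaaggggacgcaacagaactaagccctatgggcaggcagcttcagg

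The Pcp4 sequence held a CCAAT box 61 to 65 bases before the start, a motif that 34% of all 33469 listed promoters held. Fezf2 held 1 GC box and Etv1 held 2 that overlap by 1 base, against 30.5% of all promoters. The TATA box (TATAAA, 12.9% of promoters) was found in none of the 5 member promoters. Letters bound by the members' own families were searched as well, on both strands: AGGTGTG for T-box factors, CCGGAA for ETS factors, TGTTTAC for forkhead factors and AACAAT for SOX factors. Of the 5 member promoters, 1 held any of them, the SOX letters 91 to 96 bases before the start of Tbr1, where 10.3% of all promoters held AACAAT. The T-box, ETS and forkhead letters were held by 4.8%, 12.6% and 3.2% of all promoters. GC content was 62.8% for Fezf2 and 52.4% for both Pcp4 and Etv1, against a median of 51.2% over all promoters.

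How well the genes were measured differed widely. Crym, Pcp4, Fezf2, the Sox5 probe A_44_P149847 and the Bcl11b probe A_44_P185355 lay well above background in both cell types on all 20 arrays. Their median signal was 206, 88.6, 11.2, 23.1 and 5.85 times that of the negative control spots of the same arrays. Etv1 was dimmer, at 2.26 times. The second Bcl11b probe (A_44_P352043), Tle4, the second Sox5 probe (A_43_P16048) and Tbr1 were near the negative controls, at 1.31, 1.27, 1.13 and 1.14 times. The Tbr1 probe is an expressed sequence tag described only as similar to Tbr-1, and the Fezf2 probe is listed under an older symbol of the gene, Zfp312.

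The dye swap gave a direct measure of the error between arrays. Error from cell capture and RNA amplification was not measured apart from the difference between animals. The median difference between the dye-swapped arrays of an animal was 0.04 for Bcl11b A_44_P185355, where the animals of day 7 differed with an SD of 0.50. It was 0.08 for Pcp4, against an SD of 0.64 at day 7. The sign was the same on both arrays in 8 of 10 animals for both probes. For the near-background probes Bcl11b A_44_P352043 and Tbr1, the sign matched in only 1 of 10 animals, and for Sox5 A_43_P16048 in 5. Most ratios of Bcl11b A_44_P352043 and Tbr1 were negative with the sprouting sample in Cy5 and positive on the dye swap, so their sign went with the dye. The spot of Pcp4 and that of Crym were saturated in the sprouting channel on 1 array of day 7 replicate 1. For Pcp4 in that animal, the array with the saturated spot gave 1.10 and the other gave 1.13. For Crym they gave -0.38 and 0.04.

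**Figure D1:**
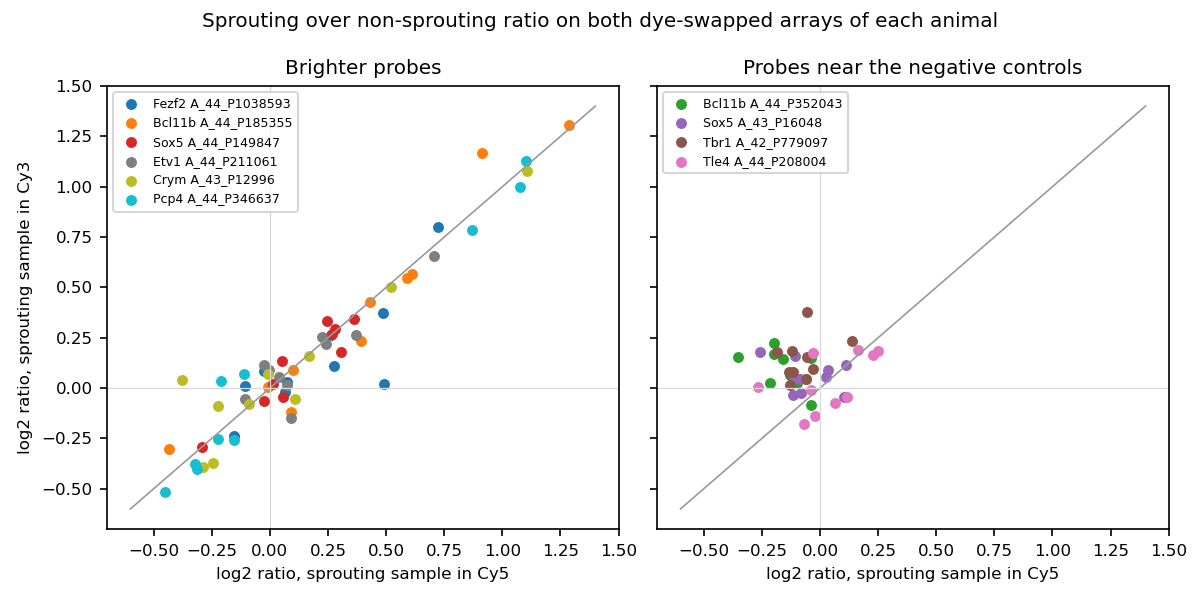
Log2 ratio of sprouting over non-sprouting neurons on the array with the sprouting sample in Cy5 (x axis) and on its dye swap (y axis), 1 point per animal and probe, with the line of equality. The 6 brighter probes lie along the line, while the 4 probes near the negative controls do not follow it. Most points of Bcl11b A_44_P352043 and Tbr1 are negative on the x axis and positive on the y axis.

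The 2 arrays of an animal had ratios that correlated across probes, which are not independent replicates, with r between 0.32 and 0.73 in 9 animals. In day 21 replicate 4 the correlation was -0.36 and the spread of the ratios over probes was 0.07, against 0.15 to 0.24 in the others, so day 21 means of the brighter probes, Tbr1 and Tle4 are also given without it. Scan days in the file headers, which are not days of extraction, numbered 5, and 3 of them held animals of both days.

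At day 7, the early time point, the Bcl11b probe A_44_P185355 had the largest mean ratio of the member probes. Pcp4, Fezf2 and Etv1 followed, and each of these means was above 0. The second Bcl11b probe, near the negative controls, stood at -0.02. The mean of both Bcl11b probes was 0.32, below the 0.53 of Pcp4. None of the 10 member probes passed a Benjamini-Hochberg adjusted p under 0.05 by limma over 37344 probes, where 0.00268% of all probes passed. Of the 10 member probes 5 had an unadjusted p under 0.05, each higher in sprouting neurons, against 9.61% of all probes in either direction. They belonged to Bcl11b, Etv1, Pcp4, Fezf2 and Tle4. The members and the lists below were chosen with earlier results of these data known. Their counts beside the share of all probes or genes are therefore not a test. The median ratio of the member probes was 0.14, and that of all probes was 0.00. The count of 5 fell to 3 without replicate 1 or without replicate 4. It also fell to 3 when the arrays were median centred and loess was left out, and to 2 with a separate fit of each day. It rose to 6 when the probes of a gene were averaged, with Sox5 added (limma, unadjusted p = 0.0406, adjusted p = 0.509).

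Fezf2 (A_44_P1038593), the specifier of subcerebral neurons, had day 7 ratios of -0.20, 0.43, 0.76, 0.19 and 0.26 in replicates 1 to 5. It was higher in sprouting neurons of 4 animals and lower in replicate 1. The mean was 0.29 ± 0.35 (SD, n = 5), a 1.22-fold difference (limma, unadjusted p = 0.0195, adjusted p = 0.466). It was 0.17 without replicate 3, the highest animal, and 0.16 with median centring of the arrays. At day 21 the ratios were 0.26, -0.05, 0.05, 0.03 and 0.02, so that only replicate 1 stood clearly off 0, and its arrays gave 0.49 and 0.02. The day 21 mean was 0.06 ± 0.11 (SD, n = 5; limma, adjusted p = 0.959). The difference of day 21 minus day 7 was -0.23 for Fezf2 (limma, adjusted p = 0.951), and -0.37 with scan day as a block (adjusted p = 0.843).

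Bcl11b, the corticospinal factor downstream of Fezf2, had day 7 ratios of 0.59, 0.09, 0.31, 1.30 and 1.04 on its bright probe. All 5 animals were higher in sprouting neurons, and the highest exceeded the lowest by more than 1 log2 unit. The mean was 0.67 ± 0.50 (SD, n = 5), 1.59-fold, with a 95% interval of 0.28 to 1.06 (limma, unadjusted p = 0.00339, adjusted p = 0.379). Etv1 shared the sign in all 5 animals, which 3.81% of the probes measured in all animals did in this direction. The exact sign-flip test gave Bcl11b a two-sided p of 0.0625, the smallest that 5 animals can give.

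At day 21 Bcl11b on the bright probe stood at 0.00, 0.43, 0.57, -0.01 and -0.37. The animals then spread on both sides of 0, with replicates 2 and 3 inside the day 7 range. The mean was 0.12 ± 0.38 (SD, n = 5; limma, adjusted p = 0.955), and it was 0.16 without replicate 4. The difference of day 21 minus day 7 was -0.54 (95% interval -1.10 to 0.01; limma, unadjusted p = 0.0531, adjusted p = 0.951; exact permutation p = 0.103). The dim Bcl11b probe gave -0.02 ± 0.05 at day 7 and -0.04 ± 0.04 at day 21 (SD, n = 5 each) and thus did not share the values of the bright one. The mean of both Bcl11b probes was 0.32 at day 7 and 0.04 at day 21.

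Sox5, the timing factor of deep layer neurons, had day 7 ratios of 0.35, -0.29, 0.24, 0.27 and 0.29 on its bright probe. Replicates 1, 3, 4 and 5 lay close together, and replicate 2 was on the other side of 0 with -0.29 on both of its arrays. The mean was 0.17 ± 0.26 (SD, n = 5; limma, unadjusted p = 0.0694, adjusted p = 0.541). At day 21 the same probe gave 0.29, -0.05, 0.02, 0.01 and 0.09, a mean of 0.07 ± 0.13 (SD, n = 5; limma, adjusted p = 0.944). The dim Sox5 probe stayed between -0.07 and 0.11 in all 10 animals.

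Tbr1 and Tle4 stand for corticothalamic neurons, and both were measured near background. The Tbr1 tag lay between -0.06 and 0.05 at day 7 and between -0.03 and 0.19 at day 21, with means of 0.00 ± 0.04 and 0.07 ± 0.10 (SD, n = 5 each). Tle4 had ratios of 0.20, 0.04, 0.22, 0.18 and -0.08 at day 7, with a mean of 0.11 ± 0.13 (SD, n = 5; limma, unadjusted p = 0.0445, adjusted p = 0.514). Its day 21 ratios were 0.07, -0.12, 0.00, -0.13 and -0.02, with a mean of -0.04 ± 0.09 (SD, n = 5; limma, adjusted p = 0.938). The difference between the days was -0.15 for Tle4 (limma, unadjusted p = 0.0483, adjusted p = 0.951), where the median gap between its dye-swapped arrays was 0.11.

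Etv1 (A_44_P211061) had day 7 ratios of 0.23, 0.32, 0.68, 0.05 and 0.05. It was higher in sprouting neurons of all 5 animals, though replicates 4 and 5 lay within the usual difference between its arrays, 0.05. The mean was 0.26 ± 0.26 (SD, n = 5; 1.20-fold; limma, unadjusted p = 0.00963, adjusted p = 0.434; exact sign-flip p = 0.0625). Without replicate 3 it was 0.16. At day 21 the ratios were 0.05, -0.08, 0.04, -0.03 and 0.24, with a mean of 0.04 ± 0.12 (SD, n = 5; limma, adjusted p = 0.967).

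Crym (A_43_P12996), the thyroid hormone binding protein, had day 7 ratios of -0.17, -0.16, 1.09, -0.34 and -0.31. It was lower in sprouting neurons of 4 animals, and replicate 3 alone was high, with 1.11 and 1.08 on its arrays. In replicate 1, the array with the saturated sprouting channel gave -0.38 and the other gave 0.04. The mean of 0.02 ± 0.60 (SD, n = 5; limma, adjusted p = 0.98) therefore describes no single animal, and it was -0.24 without replicate 3. At day 21 the ratios were 0.17, -0.09, 0.03, 0.03 and 0.51, with a mean of 0.13 ± 0.23 (SD, n = 5; limma, adjusted p = 0.955).

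Pcp4 (A_44_P346637), the calmodulin regulator, had day 7 ratios of 1.11, -0.24, -0.09, 1.04 and 0.83. The animals fell apart, with replicates 1, 4 and 5 well above 0 and replicates 2 and 3 just below it. The mean was 0.53 ± 0.64 (SD, n = 5), 1.445-fold, with a 95% interval of 0.11 to 0.95 (limma, unadjusted p = 0.0175, adjusted p = 0.464; exact sign-flip p = 0.25). It was 0.39 without replicate 1, 0.72 without replicate 2 and 0.33 with median centring. The interval and the limma p use a spread pooled over both days, not the day 7 SD alone. The standard error was 0.19 at day 7 and at day 21, though the SD at day 21 was 0.18.

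At day 21 Pcp4 had ratios of -0.21, -0.35, -0.36, -0.02 and -0.48. All 5 animals were below 0, as were 4.1% of the probes measured in all animals, and replicate 4 lay within the gap between its arrays. The mean was -0.28 ± 0.18 (SD, n = 5; limma, unadjusted p = 0.162, adjusted p = 0.878; exact sign-flip p = 0.0625), and -0.35 without replicate 4. Of the 10 member probes, 0 passed the adjusted threshold by limma at day 21 and 0 had an unadjusted p under 0.05, where 0% and 5.74% of all probes did. Without replicate 4, 1 of the 10 had an unadjusted p under 0.05, Tbr1, whose mean was then 0.09 (limma, unadjusted p = 0.0494, adjusted p = 0.768). The other day 21 means without replicate 4 were 0.07 for Fezf2, 0.09 for Sox5 A_44_P149847, -0.02 for Tle4, 0.06 for Etv1 and 0.16 for Crym, all with the sign they had with it. A separate fit of each day also gave 1 of the 10 an unadjusted p under 0.05 at day 21. So did the fit of 20 single arrays given below, for Pcp4 (limma, unadjusted p = 0.0464, adjusted p = 0.673).

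**Figure D2:**
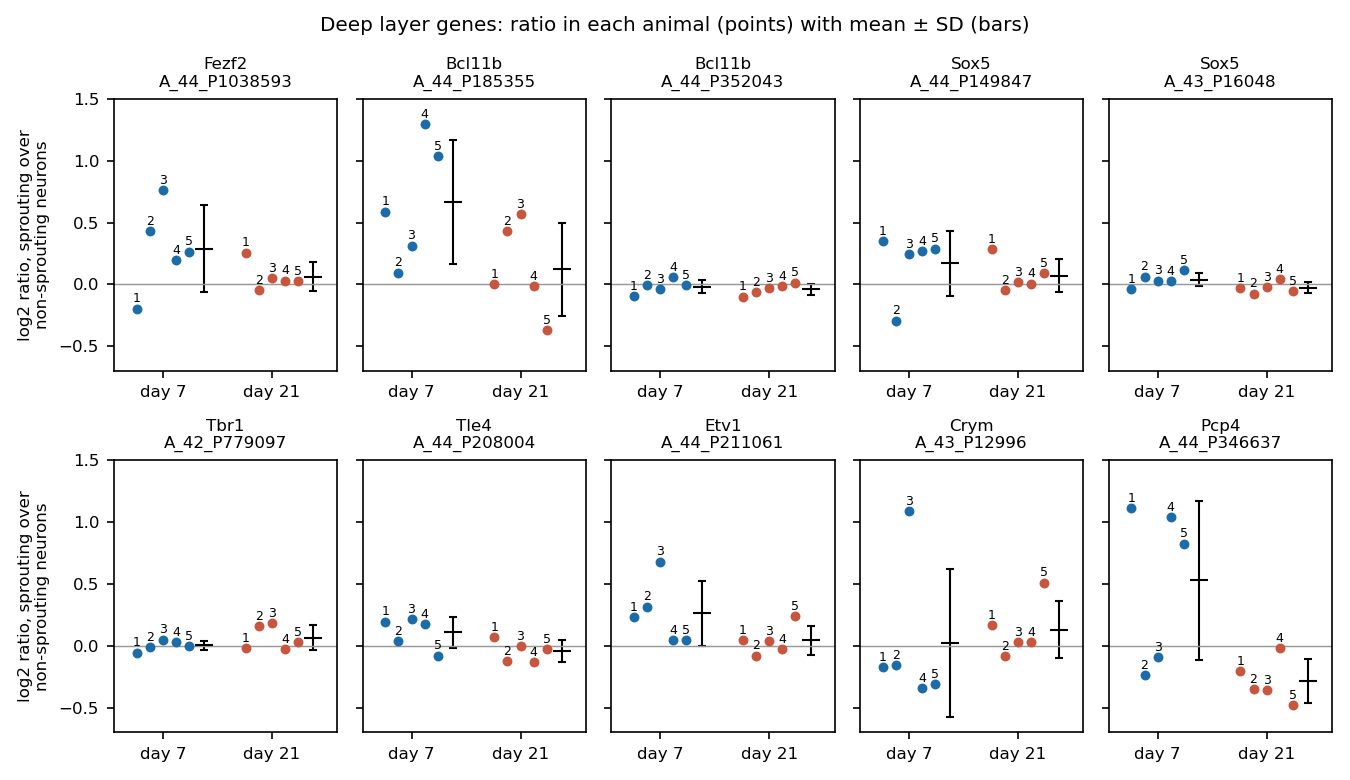
Log2 ratio of sprouting over non-sprouting neurons (y axis) for each member probe at day 7 (blue) and day 21 (red); points are animals with their replicate number and bars are the mean and SD of 5 animals. Bcl11b A_44_P185355 was above 0 in all 5 day 7 animals, and Pcp4 was below 0 in all 5 day 21 animals.

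Between the days, Pcp4 showed the largest difference of the members, -0.81 for day 21 minus day 7 (95% interval -1.40 to -0.22; limma, unadjusted p = 0.0116, adjusted p = 0.951). The exact permutation test of its 5 against 5 animals gave p = 0.0397, and the groups overlapped, since day 7 replicates 2 and 3 lay within the day 21 range. With scan day as a block the difference was -0.85, and within the 3 scan days that held both groups it was -0.02, -1.18 and -1.52. For Bcl11b A_44_P185355 the blocked difference was -0.77, and -0.32, -0.54 and -1.67 within these scan days. The only day 7 animal on these scan days was replicate 3, 5 and 4 in turn. Each within-day value thus rests on a single day 7 animal, and the last also on day 21 replicate 5 alone. By limma, 0 of the 10 member probes passed for the difference between days, and 2, Pcp4 and Tle4, had an unadjusted p under 0.05, both lower at day 21, where 0% and 4.06% of all probes did. Oligodendrocyte and striatal markers were mostly lower at day 21 as well, with values given beside those lists. The count of 2 member probes became 4 without day 7 replicate 2, 3 with scan day as a block, 1 without day 21 replicate 4 or 5, and 0 with median centring.

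Over both days together, 0 of the 10 member probes passed by limma (0% of all probes). With an unadjusted p under 0.05 there were 3, all higher in sprouting neurons, where 11.1% of all probes passed that threshold in either direction. They were Bcl11b at 0.39, Fezf2 at 0.18 and Etv1 at 0.15, each higher in 8 of 10 animals. The count was 1 without day 21 replicate 5. Pcp4, whose days had opposite signs, stood at 0.12 ± 0.62 (SD, n = 10).

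The choice of the replicate decided whether any member passed. When the 20 arrays entered the fit singly, with a dye term and a random block for each animal, Bcl11b A_44_P185355 and Pcp4 passed at day 7 by limma, with adjusted p of 0.0107 and 0.0484, where 1.37% of all probes passed. Bcl11b A_44_P185355 also passed over both days in that fit (adjusted p = 0.0267), where 1.75% of all probes passed. The fit used 1 correlation between arrays of an animal for every probe, 0.58, while the arrays of these probes differed by far less than the animals did.

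**Figure D3:**
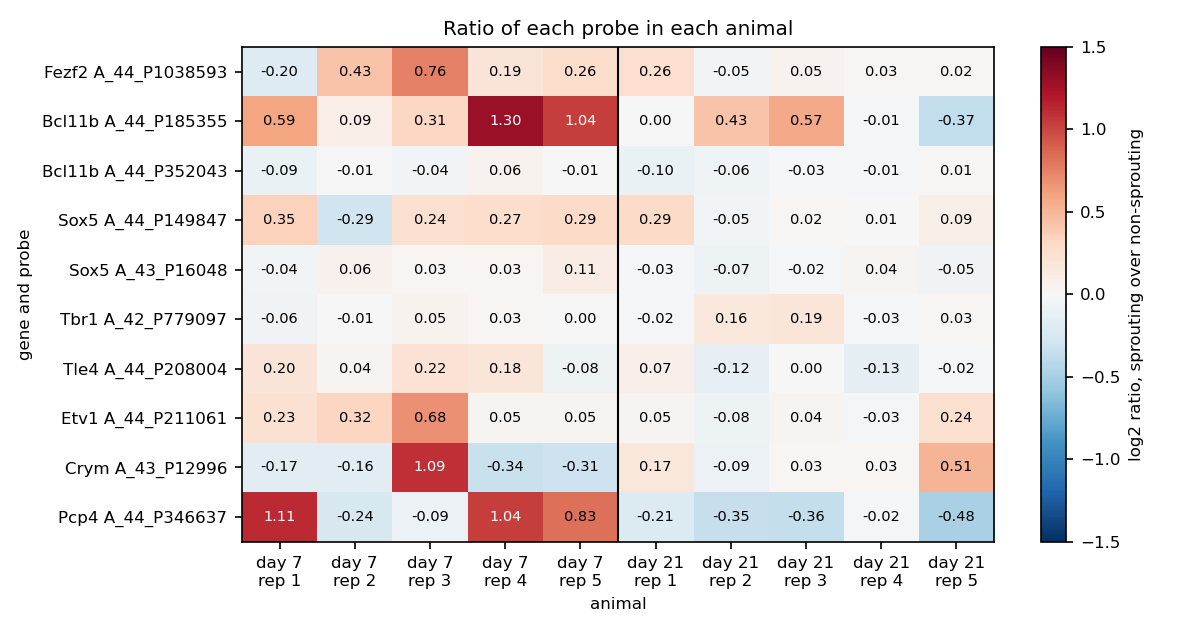
Log2 ratio of sprouting over non-sprouting neurons (colour and printed value) for each member probe (rows) in each of the 10 animals (columns; rep, replicate). Pcp4 and Bcl11b A_44_P185355 were both above 0.5 in day 7 replicates 1, 4 and 5, while Crym, Fezf2 and Etv1 were each highest in day 7 replicate 3.

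The members differed in which animals were high. At day 7, replicates 4 and 5 had the highest Bcl11b ratios (1.30 and 1.04) and high Pcp4 ratios, together with the lowest Crym ratios (-0.34 and -0.31). Replicate 3 had the opposite arrangement, with Crym at 1.09, Fezf2 at 0.76, Etv1 at 0.68 and Pcp4 at -0.09. Over the 10 animals, the brightest probes of the 8 genes formed 28 pairs. The highest Pearson r was that of Bcl11b with Pcp4, 0.76 (permutation p = 0.0115) and Spearman rho = 0.58 (permutation p = 0.0871), which did not pass the adjustment over 28 pairs (adjusted p = 0.238 and 0.407). Its r was 0.62 on deviations from the day means and 0.60 without day 7 replicate 4 and day 21 replicate 5. By rank the order of pairs was another one, with rho of -0.73 for Bcl11b with Crym (permutation p = 0.0202, adjusted p = 0.344) and 0.64 for Pcp4 with Sox5 (permutation p = 0.054, adjusted p = 0.344); r was -0.53 for the former (permutation p = 0.115, adjusted p = 0.388) and 0.63 for the latter (permutation p = 0.0517, adjusted p = 0.29).

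Etv1 correlated with Crym at r = 0.73 (permutation p = 0.0316, adjusted p = 0.238), yet rho was 0.16 (permutation p = 0.653, adjusted p = 0.947). On deviations from the day means r was 0.945, the highest of the 28 pairs on that measure. Without day 7 replicates 2 and 3 the r over all values was 0.36. Day 7 replicate 3 was the highest animal for both genes, with 0.68 for Etv1 and 1.09 for Crym. Day 7 replicate 2 had 0.32 for Etv1 and -0.16 for Crym. The r without replicate 3 alone was not computed. Etv1 with Fezf2 gave r = 0.69 (permutation p = 0.034) and rho = 0.49 (permutation p = 0.154), with adjusted p of 0.238 and 0.576, and r was 0.60 on deviations from the day means and 0.56 without day 7 replicates 1 and 3. Bcl11b with Fezf2 gave r = -0.01 (permutation p = 0.986) and rho = 0.03 (permutation p = 0.946), with adjusted p of 0.986 and 0.947, and r was -0.34 on deviations from the day means and -0.18 without day 7 replicate 4 and day 21 replicate 5. No pair passed the adjustment.

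Among 14080 other named genes, the ratio most like that of Bcl11b over the 10 animals was that of Pln, the phospholamban gene (Pearson r = 0.95, a description of the highest values in a large search). Trak2, an adaptor of mitochondrial transport, followed at 0.94, then Arrdc3 at 0.93, Slc12a1 at 0.92 and Nif3l1 at 0.92. Pln had mean ratios of 0.58 at day 7 and 0.21 at day 21, close in size to 0.67 and 0.12 for the bright Bcl11b probe. Slc12a1 had smaller ones, 0.11 and 0.03. Most like Pcp4 were Or2n1g at 0.96, Car1, a carbonic anhydrase, at 0.92, Or6c201 at 0.92, Ibsp at 0.90 and Acsl6, a fatty acid ligase of brain, at 0.90. Each had smaller mean ratios than Pcp4, which had 0.53 at day 7 and -0.28 at day 21. Those of Or2n1g were 0.04 and -0.04, and those of Or6c201 were 0.01 and -0.07. The largest at day 7 was 0.31, for Acsl6. All of these points share the same 10 animals and arrays.

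The level of each channel was compared between the days as well. Levels are log2 intensities after normalization between arrays, and are compared for a probe with itself only. Bcl11b A_44_P185355 in sprouting neurons was 9.39, 9.66, 9.09, 10.04 and 9.60 at day 7 and 8.96, 9.68, 9.15, 8.96 and 8.66 at day 21. The days overlapped, through day 21 replicates 2 and 3. The means were 9.56 ± 0.35 and 9.08 ± 0.38 (SD, n = 5 each), a difference of -0.48 (limma, unadjusted p = 0.048, adjusted p = 0.562; exact permutation p = 0.0873). In non-sprouting neurons the Bcl11b means were 8.89 ± 0.39 and 8.96 ± 0.24 (SD, n = 5 each; limma, adjusted p = 0.904).

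For Pcp4 the differences between the days had opposite signs in the cell types, neither past the threshold. In sprouting neurons it averaged 13.5 ± 0.70 at day 7 and 13.2 ± 0.52 at day 21, a difference of -0.34 (SD, n = 5 each; limma, adjusted p = 0.694). In non-sprouting neurons it averaged 12.97 ± 0.34 and 13.4 ± 0.45, a difference of 0.47 (SD, n = 5 each; limma, unadjusted p = 0.0626, adjusted p = 0.564; exact permutation p = 0.0873). Fezf2 in non-sprouting neurons averaged 9.74 ± 0.54 and 10.25 ± 0.21, a difference of 0.51 (SD, n = 5 each; limma, unadjusted p = 0.0532, adjusted p = 0.563). Etv1 in sprouting neurons averaged 7.95 ± 0.54 and 7.49 ± 0.27, a difference of -0.46 (SD, n = 5 each; limma, unadjusted p = 0.0862, adjusted p = 0.576).

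By limma, 0 of the 10 member probes passed between the days in either cell type (0% of all probes in both). With an unadjusted p under 0.05 there was 1 in sprouting neurons, Bcl11b A_44_P185355, where 8.89% of all probes were called, and 0 in non-sprouting neurons, where 8.84% were. Without normalization between arrays, the difference was -0.10 for Fezf2 in sprouting neurons and -0.14 for Bcl11b A_44_P185355 in non-sprouting neurons, and both signs were thus turned.

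**Figure D4:**
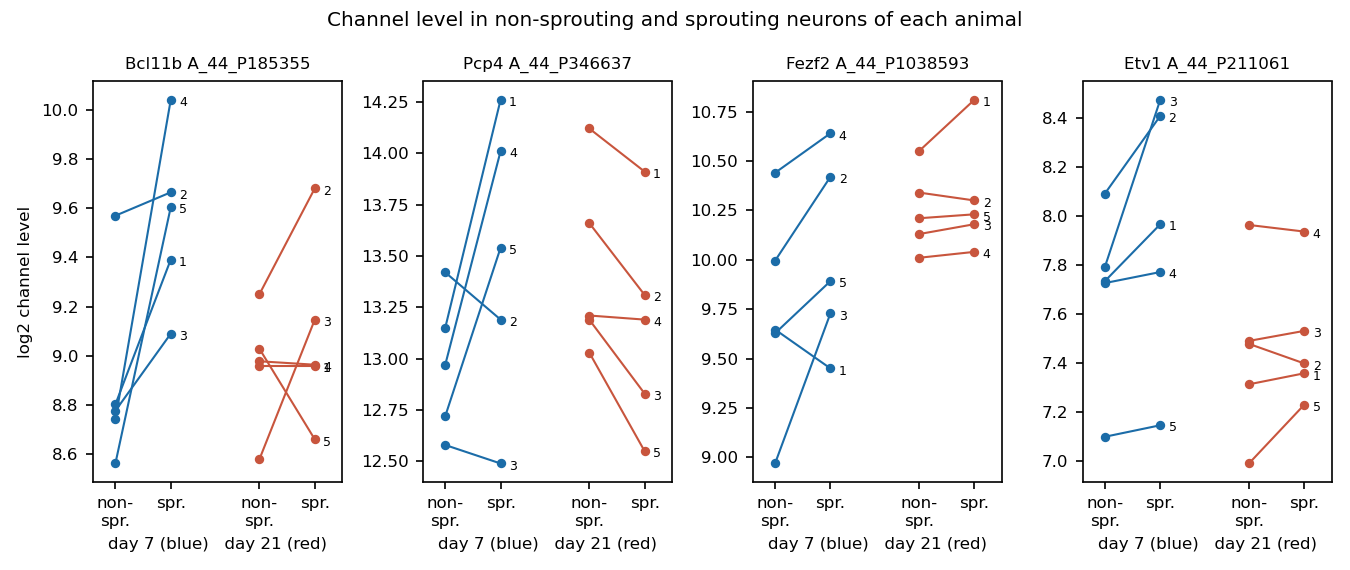
Log2 channel level (y axis) of the Bcl11b bright probe, Pcp4, Fezf2 and Etv1 in non-sprouting (non-spr.) and sprouting (spr.) neurons, joined by a line for each animal with its replicate number, at day 7 (blue) and day 21 (red). All 5 Bcl11b lines slope up at day 7, and all 5 Pcp4 lines slope down at day 21; each panel has its own axis.

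Other genes of deep layers were counted in the same way, by the brightest probe of each. Of 25 genes on that list 20 were tested, and 0 passed by limma in any contrast. At day 7, 4 of the 20 had an unadjusted p under 0.05, all higher in sprouting neurons, where 9.44% of 33090 genes did in either direction. These were S100a10, an S100 family protein of corticospinal neurons, at 0.30 ± 0.28, Nr4a2, a nuclear receptor of layer VIb, at 0.38 ± 0.41, Ldb2, a LIM domain cofactor, at 0.25 ± 0.14 (SD, n = 5 each) and Chrna5, a nicotinic receptor subunit, at 0.12 ± 0.13 (SD, n = 5). Chrna5 was named after its value was seen. The median of the 20 was 0.03 at day 7 and -0.01 at day 21, against -0.01 and 0.00 for all genes. At day 7, 12 of the 20 had a positive mean ratio and 8 a negative one, and at day 21 these numbers were 8 and 12. S100a10 was the single gene of this list with an unadjusted p under 0.05 at day 21, at 0.20 ± 0.14, higher in 5 of 5 animals, where 5.78% of all genes had such a p. Over both days there were 2, S100a10 at 0.25 and Ldb2 at 0.18, against 11% of all genes, and for the difference between days 0, against 4.01%.

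Genes of upper layers and callosal neurons, which project within the cortex, served for comparison with the deep layer genes. Of 20 genes 18 were tested and 0 passed by limma at day 7, while 5 reached an unadjusted p under 0.05, of which 2 were higher and 3 lower, against 9.44% of all genes. The lowest p was that of Lhx2, a LIM homeobox factor, at -0.47 ± 0.19, followed by Lamp5, a membrane protein of upper layers and interneurons, at -0.60 ± 0.42, both lower in 5 of 5 animals (SD, n = 5 each). Cdh13, a cadherin, stood at 0.35 ± 0.28 and was higher in 5 of 5 (SD, n = 5). The median of the 18 was -0.04 at day 7, against 0.22 for the brightest probes of the 8 deep layer members; no test of that difference was made. The median of the 18 was -0.05 at day 21, 14 of them had a negative mean, and 1, Inhba, an activin subunit, had an unadjusted p under 0.05, at 0.18 ± 0.16 (SD, n = 5), against 5.78% of all genes. Over both days 6 had such a p, 1 higher and 5 lower, against 11% of all genes. The 3 smallest were those of Lamp5 at -0.41, Lhx2 at -0.24 and Cdh13 at 0.20. For the difference between days there were 2, Lhx2 at 0.46 and Cdh13 at -0.29, against 4.01%. By limma, 0 of the 18 passed the adjusted threshold in these contrasts.

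Markers of other cell types differed between the samples of an animal. The oligodendrocyte list (16 genes, 10 of them well above background on all arrays) had median ratios of -0.37, 0.21, -0.17, 0.85 and 0.999 in day 7 replicates 1 to 5. Replicates 4 and 5, where Bcl11b was highest and Pcp4 high, thus had the highest oligodendrocyte medians, while replicate 1, with the highest Pcp4 ratio, had the lowest. At day 21 the medians were 0.63, -0.30, -0.37, 0.01 and -0.16, highest in replicate 1, where Bcl11b stood at 0.00. The summed oligodendrocyte level ran from 15.5 to 16.9 in sprouting and 15.7 to 16.7 in non-sprouting neurons at day 7, and from 14.5 to 16.3 and 14.93 to 15.96 at day 21. At day 7, 15 of the 16 genes had a positive mean ratio, and 2 had an unadjusted p under 0.05, Cnp at 0.25 and Mal at 0.47, against 9.44% of all genes. The median of the 16 mean ratios at day 7 was 0.34, above the 0.22 of the 8 members. For day 21 minus day 7, 15 of the 16 genes were lower, with a median of -0.36, where the median of the 8 members was -0.19 and 6 of them were lower. Of the 16, 1 had an unadjusted p under 0.05 for that difference, Cnp at -0.38 (limma, unadjusted p = 0.0232, adjusted p = 0.951), against 4.01% of all genes. The part of these markers in the Bcl11b and Pcp4 ratios, and in their differences between the days, was not tested.

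Striatal projection neurons also express Bcl11b and Pcp4, and their list (13 genes, 6 well above background on all arrays) had medians between -0.02 and 0.11 at day 7. Pde10a, a phosphodiesterase of striatum, had the smallest p of that list at 0.29 ± 0.26 (SD, n = 5). At day 21 the median was -0.57 in replicate 1, with 0 of 13 genes higher, and between -0.08 and 0.02 in the others. For day 21 minus day 7, 12 of the 13 striatal genes were lower, with a median of -0.15, and 2 had an unadjusted p under 0.05, against 4.01% of all genes. These were Drd1, a dopamine receptor, at -0.28 (limma, unadjusted p = 0.0166, adjusted p = 0.951) and Rgs9, a regulator of G protein signalling, at -0.56 (limma, unadjusted p = 0.0458, adjusted p = 0.951). The summed striatal level lay between 12.8 and 13.4 in sprouting and 13.0 and 13.3 in non-sprouting neurons at day 7, and between 12.8 and 13.2 and 12.8 and 13.8 at day 21. For interneurons, Vip stood at -0.93 ± 0.78 and Gad2 at 0.49 ± 0.50 at day 7 (SD, n = 5 each), and the median of the 16 genes, 11 well above background on all arrays, was 0.00. The summed interneuron level was 15.2 to 15.6 in sprouting and 15.0 to 15.7 in non-sprouting neurons at day 7, and 14.62 to 15.98 and 14.64 to 16.02 at day 21. The part of either list in the member ratios and in their differences between the days was not tested. Of 11 glutamatergic neuron markers, 7 lay well above background on all arrays, and the list had a median of 0.00 at day 7 and -0.03 at day 21. The medians at day 7 were -0.02 for 13 astrocyte, 0.02 for 14 microglia and -0.01 for 12 endothelial and mural genes. At day 21 they were -0.16, -0.07 and -0.10, and for day 21 minus day 7 -0.10, -0.10 and -0.02, with -0.06 for the glutamatergic and -0.02 for the interneuron markers.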

How the data were processed

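Per the file headers, Agilent Feature Extraction 9.1.3.1 wrote the deposited scanner files, which give intensity as the mean signal and the median local background of each spot. The authors' deposited log2 ratios (Cy5 over Cy3) are in a separate table, whose method is not given in the sources used here. It served as an alternative, and 20 columns of mean log intensity in it were not used. Intensities were corrected with normexp at an offset of 50 and normalized within arrays by loess (limma 3.58.1, R 4.3.3), with 2256 control spots at weight 0 and outlier spots left out. Every ratio was oriented as sprouting over non-sprouting, and the 2 arrays of an animal were averaged. Probes were kept where a share of at least 0.5 of the arrays of a cell type and day had them well above background, with values in at least 3 animals per day (37344 of 41012), and all 10 member probes passed. For the lists the brightest probe stood for a gene.

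Limma's lmFit and eBayes gave each day its mean over all 10 animals, with 2.255 prior degrees of freedom, two-sided tests and Benjamini-Hochberg adjustment over all probes. Exact tests flipped the signs of animals within a day or permuted 5 against 5 animals, with smallest possible p of 0.0625 and 0.00794; correlations used 100000 permutations. Levels came from Aquantile normalization. Precision is set by the number of animals (median standard error of a day's mean, 0.052). Both days shared an estimate of the spread between animals. A day's limma interval and p thus do not rest on its own SD alone. The fit was tested on simulated data.

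Probe names were matched with RefSeq's GRCr8 table (10658 by accession, 4654 by symbol, 3886 by synonym, 21814 kept as in the file). Fezf2 was found by a synonym in that table. The members and lists were chosen with earlier results of these data known. Named genes were all member probes, up to 3 genes with the smallest p of each list and contrast, from which the text takes those beside the members' results, and the 5 genes most like Bcl11b and Pcp4. Alternatives changed the background correction, the within-array and between-array normalization, the brightness filter, the probe rule, the moderation, the weights, the replicate, batch and pairing terms and the threshold, or left out each animal. Day cohorts were separate animals, so replicate numbers do not pair them.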

Additional observations from a re-analysis of the deposited data

Results flagged for a closer look

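Each member probe's ratio and channel levels were screened for an animal far from the other 4 of its day, by Dixon's ratio with a 95% critical value of 0.71. Of 60 groups of 5 animals, 5 held such an animal, where the critical value nominally allows about 1 in 20. The groups are not independent, because a ratio is the difference of the levels screened beside it. The share over all probes was not computed, so the count is not read as a result. Crym in day 7 replicate 3 had a ratio of 1.09, against -0.34 to -0.16 in the other 4 animals. Its level in the non-sprouting neurons of that animal was 13.17, against 14.3 to 14.7. Sox5 A_44_P149847 in day 7 replicate 2 had a ratio of -0.29, against 0.24 to 0.35. Bcl11b A_44_P185355 in the non-sprouting neurons of day 7 replicate 2 had a level of 9.57, against 8.56 to 8.80. Tle4 in the non-sprouting neurons of day 21 replicate 4 had a level of 7.08, against 6.43 to 6.62.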

How the results depend on the processing

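No member probe passed the adjusted threshold in any alternative except the fit of the 20 single arrays with a random block for each animal, with 2 member probes at day 7 and 1 over both days. That fit called 513 probes at day 7, 655 over both days and 5 for the difference between days. The single probe past the threshold at day 7 (no member) was lost, leaving 0, with processed signals, median centring, the stricter brightness filter, the mean of the probes of a gene, moderation with a trend and a fit per day; leaving out an animal gave 0 to 1. With the replicate block, 0 member probes passed for the difference between days, and Pcp4 stood at -0.81; same-numbered animals did not deviate together (r from -0.18 to -0.02), and the unadjusted count went from 2 to 1. For levels in non-sprouting neurons it went from 0 to 1, Pcp4 at 0.47 (unadjusted p = 0.0126, adjusted p = 0.38), and in sprouting neurons it stayed at 1. The block changed no call at the adjusted threshold.

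Bcl11b A_44_P185355, Pcp4 and Fezf2 kept the sign of their ratio in every alternative and contrast run. Signs turned mostly in probes near background or with means near 0. They also turned in the bright probes Crym and Sox5 A_44_P149847 for the difference between the days, 0.11 and -0.10 in the main fit. The cause was not tested. With processed signals, Tbr1 was -0.020 at day 7, -0.074 at day 21, -0.047 over both days and -0.054 for the difference, Sox5 A_43_P16048 was 0.17 at day 21 and Bcl11b A_44_P352043 was 0.10 for the difference. With median centring, Crym was -0.20 at day 7 and -0.053 over both days; Bcl11b A_44_P352043 was 0.0048 at day 7, 0.0092 at day 21, 0.0070 over both days and 0.0045 for the difference; Sox5 A_43_P16048 and Tle4 were 0.057 and 0.036 at day 21, and Sox5 A_44_P149847 was 0.033 for the difference. Bcl11b A_44_P352043 was 0.0022 for the difference without background subtraction. Sox5 A_43_P16048 was -0.0021 over both days with deposited ratios, Crym -0.0054 at day 7 with weights for animals and -0.027 for the difference with scan day as a block.

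Leaving out an animal gave -0.24 to 0.11 for Crym at day 7 and -0.057 to 0.12 over both days, -0.0086 to 0.018 for Tbr1 and -0.037 to 0.00096 for Bcl11b A_44_P352043 at day 7, -0.0035 to 0.015 for Sox5 A_43_P16048 over both days, and -0.0053 to 0.074 for Etv1 at day 21. For levels, day 21 minus day 7, it gave -0.082 to 0.073 for Sox5 A_44_P149847 and -0.031 to 0.046 for Tbr1 in sprouting neurons, and -0.014 to 0.24 for Bcl11b A_44_P185355, -0.12 to 0.25 for Crym and -0.16 to 0.040 for Tle4 in non-sprouting neurons. Sox5 A_44_P149847 in sprouting neurons was -0.023 with quantile normalization. Without normalization between arrays, sprouting neurons gave -0.14 for Crym, -0.43 for Sox5 A_44_P149847 and -0.10 for Fezf2, and non-sprouting neurons -0.25, -0.33 and, for Bcl11b A_44_P185355, -0.14. Signal near the negative controls limits what Tbr1, Tle4 and the dim probes of Bcl11b and Sox5 can show.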
